A study of Mus musculus with 12 samples.

Results

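The comparison described here is that of an injection, JV001 against saline, in heart muscle cells of mice that had either a sham operation or a model of chronic kidney disease (CKD). The 6 libraries labelled JV001 were set against the 6 labelled saline, with the surgery held as a term of the model. Each gene's pooled fold change is thus a single value fitted across sham and CKD mice, whether or not both moved alike. The account below asks how far the injection went with the same change in each. All 12 of the 12 libraries of the study entered, each placed by the treatment in its label. The cells were labelled as cardiomyocytes isolated from hearts of wild-type C57BL6 mice, and their RNA was sequenced. In the sham saline and sham JV001 groups, 3 libraries each, the labels give the operation with 12 weeks beside the named injection. In the CKD saline and CKD JV001 groups, also 3 libraries each, the mice had received AngII and a high salt diet and had lost 1 kidney. For CKD JV001 the labels give the same 12 weeks, and they give no duration for CKD saline. JV001 is known here by its code name alone, and the labels and design text used here name no dose, route or schedule for it and no age or sex of the mice. Nothing says that libraries of a group came from separate mice, so the p-values reflect how far these samples varied, and that variation may be technical.

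As background, the kidney and the heart are tied through salt and fluid balance and through angiotensin II and aldosterone, which act on heart cells by the type 1 angiotensin receptor and the mineralocorticoid receptor. Cardiomyocytes beat through an ordered set of sodium, calcium and potassium channels and pass the impulse on through gap junctions. Around them lie endothelial cells, fibroblasts, pericytes and macrophages, and a preparation of isolated myocytes can carry some of these along. Interferons, made when cells sense foreign or misplaced nucleic acid, induce a large group of antiviral genes in nearly every cell type, and inhibitors such as Socs1 limit their signal.

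The libraries held between 25.2 and 37.0 counts in units of 1e+06, and mitochondrial transcripts took 18.8% to 38.5% of them. Where no read was counted, up to 3 counts remain possible, or 0.0777 to 0.119 counts per 1e+06 (CPM), a limit that covers counting error only. Cardiomyocyte transcripts were abundant in every library, with Myh6, the main myosin heavy chain of the adult mouse heart, at 8967 CPM or more. Libraries 3 of CKD saline and 3 of CKD JV001 stood apart, with rank correlations across genes of 0.918 to 0.935 to the other libraries of their groups against 0.982 or more between most other pairs, and sham saline library 1 did so to a lesser degree (0.960 and 0.963). Libraries 1 and 2 of CKD saline, and likewise 1 and 2 of CKD JV001, were the most alike pairs. They still differed beyond sampling noise (median chi-square over genes 2.26 and 3.52, where noise alone gives 0.455) and were kept as separate samples.

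No gene passed the test. Of 15004 genes tested with edgeR's quasi-likelihood test, 0 (0%) had an adjusted p under 0.05, and the smallest adjusted p was 0.352. At an unadjusted p under 0.05 there were 2070 genes (13.8%), of which 1185 were higher (7.9%) and 885 lower (5.9%) with JV001. Other tools run on the same contrast called different numbers. DESeq2 called 16 genes higher and 7 lower, limma on log2 FPKM called 0, and voom with sample quality weights, which gives less weight to libraries that stand apart, called 2698 higher and 1509 lower. Without library 3 of both CKD groups, edgeR called 26 higher and 20 lower, but the CKD arms then held only the pairs of most similar libraries. With the replicate number within each surgery as a block, edgeR called 552 higher and 158 lower. The labels name no source shared by libraries of 1 number, and their deviations from the group means correlated over 0.1 for all 3 numbers in CKD but for 1 of 3 in sham. The levels and fold changes below are therefore values, not calls, and "higher" and "lower" refer to them.

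The signs of the 2 surgeries went together more often than apart. The log2 fold change had the same sign in sham and in CKD for 10104 genes (67.3%), with 5094 positive in both (34%) and 5010 negative in both (33.4%). Over all tested genes the fold change was positive for 50.9% in the pooled comparison, 49.2% in sham and 51.4% in CKD, the shares beside which counts of positive members stand below. A stricter description asks that all 3 JV001 libraries lie beyond all 3 saline libraries in the same direction in each surgery. This held for 180 genes (1.2%), 68 higher (0.453%) and 112 lower (0.746%), while 51 genes (0.34%) were separated in opposite directions. Across surgeries, all 6 JV001 libraries lay above all 6 saline libraries for 15 genes (0.1%) and below for 19 (0.127%). Leaving out a library changed the count: without sham saline library 1 it was 723, leaving out library 3 of CKD saline gave 907, and leaving out library 3 of both CKD groups gave 987. Within a single surgery such separation is more common: in sham it held for 854 genes on the higher side (5.69%) and 1007 on the lower (6.71%), and in CKD for 1234 (8.22%) and 906 (6.04%).

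**Figure D1:**
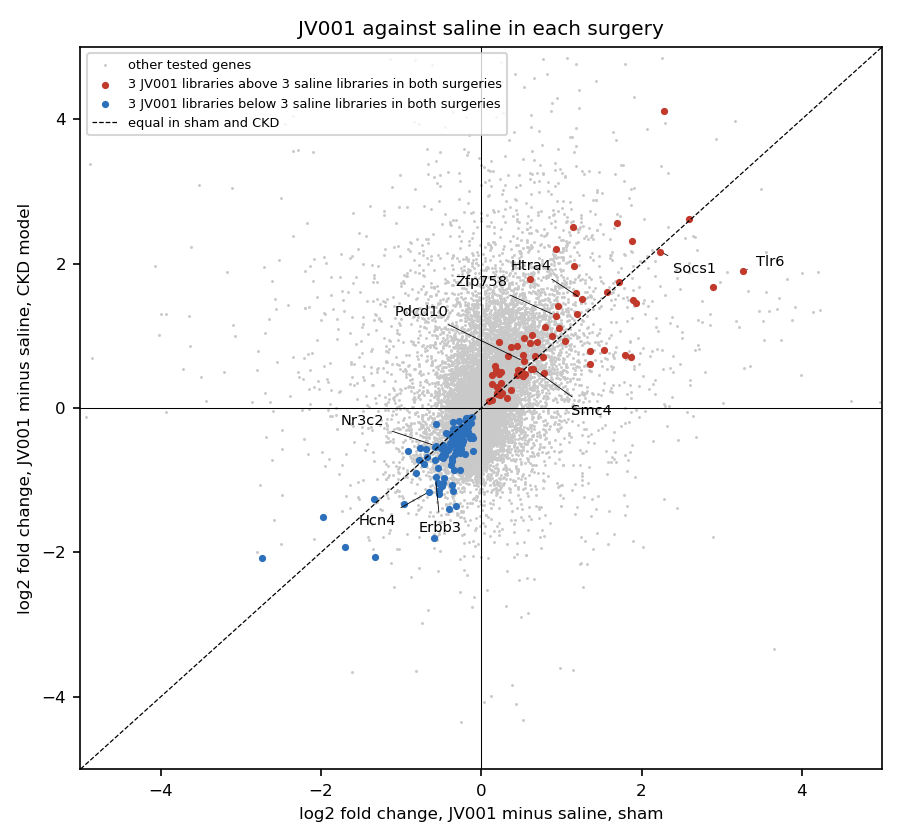
Log2 fold change of JV001 minus saline in sham (horizontal) against the same in the CKD model (vertical), 1 point per tested gene; 36 genes beyond 5 on an axis are not drawn, 1 of them separated in both surgeries. Red points are the genes whose 3 JV001 libraries lay above, and blue points those whose 3 JV001 libraries lay below, the 3 saline libraries in both surgeries, 68 and 112 genes in all, and they lie on both sides of the dashed line of equal change.

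The genes leading the higher side, ranked by the smallest unadjusted p, were Smc4, Zfp758, Pdcd10, Saa3, Tlr6, Htra4, Zbtb34, Socs1, Ccdc84 and Gas8, all at an adjusted p of 0.352 in edgeR's test. Smc4, a core subunit of the condensin complexes that compact chromosomes, was at 7.07, 6.90 and 6.45 CPM in sham saline against 11.0, 11.4 and 9.54 CPM in sham JV001. In CKD saline it was at 7.37, 7.92 and 9.06 CPM against 11.0, 11.2 and 13.3 CPM in CKD JV001. All 6 JV001 libraries lay above all 6 saline libraries, with a log2 fold change of 0.60 (SE 0.11), and the surgeries were close, at 0.65 in sham and 0.54 in CKD. Pdcd10, a protein of the cerebral cavernous malformation complex and a binder of STE20-type kinases, showed the same order. It was at 6.94, 5.78 and 6.35 CPM in sham saline, 7.79, 9.62 and 10.2 CPM in sham JV001, 5.77, 6.37 and 6.67 CPM in CKD saline and 9.09, 10.5 and 9.83 CPM in CKD JV001. Its log2 fold change was 0.59 (SE 0.12), 0.53 in sham and 0.64 in CKD. Zfp758, a zinc finger gene, was at 0.888 to 1.84 CPM in the saline libraries and at 2.12 to 3.82 CPM in the JV001 libraries, again without overlap, for a log2 fold change of 1.10 (SE 0.21).

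Zbtb34, a gene of the BTB zinc finger family, was at 3.28, 2.78 and 3.13 CPM in sham saline against 4.51, 5.16 and 5.21 CPM in sham JV001, and at 2.85, 3.00 and 5.12 CPM in CKD saline against 6.55, 5.68 and 8.42 CPM in CKD JV001. Ccdc84 (0.70, SE 0.17) and Gas8 (0.58, SE 0.14), the latter a part of the dynein regulatory complex of motile cilia, were separated in each surgery as well, between 2.47 and 5.98 CPM. Htra4, a secreted serine protease, was at 0.803, 0.557 and 0.389 CPM in sham saline, 0.989, 1.21 and 1.97 CPM in sham JV001, 0.925, 1.68 and 3.10 CPM in CKD saline and 4.59, 5.20 and 6.49 CPM in CKD JV001. Its libraries were separated within each surgery, and with either injection the CKD group mean lay above that of sham.

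Of the remaining leaders on the higher side, 3 belong to cytokine or innate immune signalling and were scarce. Socs1, an inhibitor of the Janus kinases behind interferon receptors, was at 0.289, 0.265 and 0.155 CPM in sham saline and 1.21, 1.46 and 0.697 CPM in sham JV001. In CKD it was at 0.592, 0.297 and 1.19 CPM with saline and 1.20, 1.27 and 6.84 CPM with JV001. The log2 fold change was 2.20 (SE 0.52), with 2.23 in sham and 2.16 in CKD. The CKD value leaned on JV001 library 3 (6.84 CPM). JV001 libraries 1 and 2 of CKD (1.20 and 1.27 CPM) lay just above the highest CKD saline library (1.19 CPM). Tlr6, which pairs with Tlr2 to sense bacterial lipopeptides, gave 2, 1 and 1 reads in sham saline and 20, 15 and 5 reads in sham JV001, then 8, 16 and 12 reads in CKD saline and 20, 49 and 101 reads in CKD JV001. Saa3, an acute phase serum amyloid, gave 0, 0 and 0 reads in sham saline and 0, 14 and 4 reads in sham JV001. It gave 0, 5 and 0 reads in CKD saline and 33, 15 and 2491 reads in CKD JV001, so that its place among the leaders rests on few reads in all libraries but CKD JV001 library 3.

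**Figure D2:**
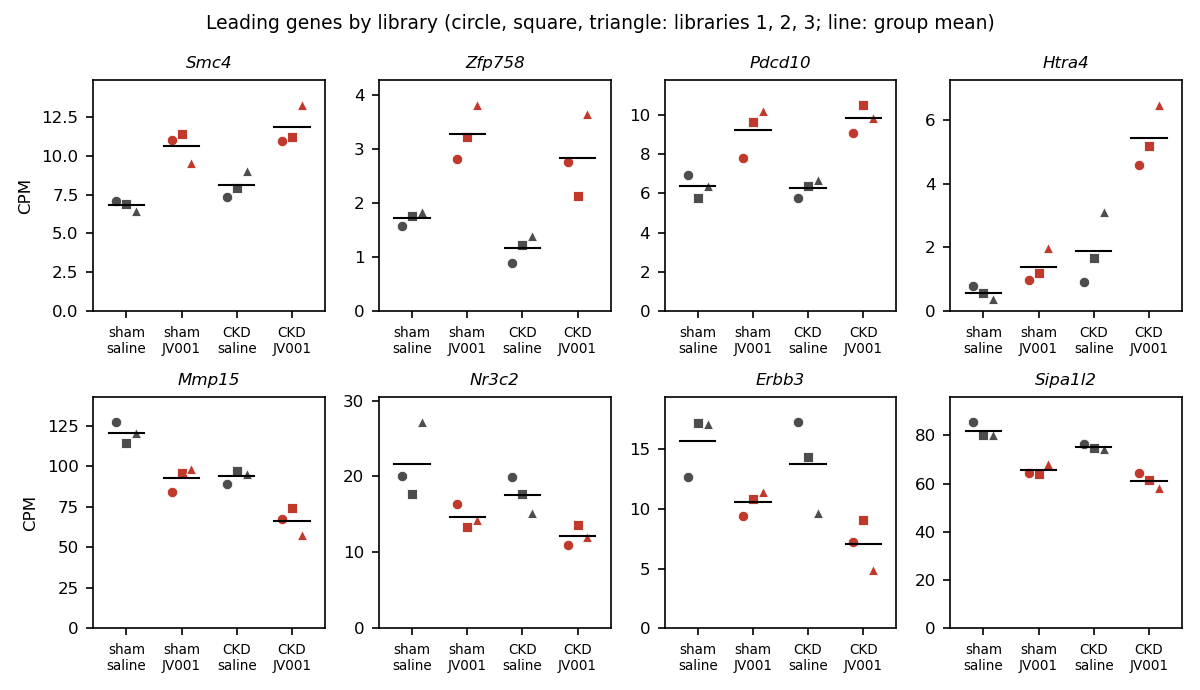
CPM of 8 leading genes in each of the 12 libraries, 3 per group on a linear axis from 0, grey for saline and red for JV001, with the group mean as a line. Smc4, Zfp758, Pdcd10 and Htra4 lay higher, and Mmp15, Nr3c2, Erbb3 and Sipa1l2 lower, in the 3 JV001 libraries than in the 3 saline libraries of each surgery.

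The leaders on the lower side were Mmp15, Magi3, Nr3c2, Mcm2, Sipa1l2, Hcn4, Lzts1, Zfp629, Erbb3 and Slc26a6, also at an adjusted p of 0.352 in edgeR's test. Nr3c2 encodes the mineralocorticoid receptor, through which aldosterone acts. It was at 20.02, 17.7 and 27.2 CPM in sham saline against 16.4, 13.4 and 14.2 CPM in sham JV001, and at 19.9, 17.7 and 15.1 CPM in CKD saline against 11.0, 13.6 and 12.1 CPM in CKD JV001. The libraries did not overlap within either surgery, and the log2 fold change of -0.54 (SE 0.13) was -0.56 in sham and -0.53 in CKD. Erbb3, a receptor for neuregulins, was at 12.7, 17.2 and 17.1 CPM in sham saline, 9.40, 10.8 and 11.4 CPM in sham JV001, 17.3, 14.3 and 9.61 CPM in CKD saline and 7.22, 9.07 and 4.87 CPM in CKD JV001. Its log2 fold change was -0.76 (SE 0.19), with -0.57 in sham and -0.96 in CKD. Mmp15, a membrane-bound matrix metalloproteinase, was at 127, 114 and 120 CPM in sham saline, 84.2, 95.9 and 98.6 CPM in sham JV001, 89.4, 96.9 and 95.1 CPM in CKD saline and 67.8, 74.2 and 57.6 CPM in CKD JV001. With either injection its CKD libraries were lower than most sham libraries, and the log2 fold change was -0.44 (SE 0.09).

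Sipa1l2, of a family of Rap GTPase-activating proteins, had the tightest groups. Its saline libraries lay between 74.2 and 85.5 CPM and its JV001 libraries between 58.0 and 68.3 CPM, for a log2 fold change of -0.31 (SE 0.07) that was -0.32 in sham and -0.30 in CKD. Lzts1, a leucine zipper gene described as a tumour suppressor, also kept all 6 JV001 libraries (1.5 to 3.29 CPM) below all 6 saline libraries (3.90 to 4.82 CPM). Slc26a6, an anion exchanger of the heart and other tissues, was at 12.0, 10.2 and 13.7 CPM in sham saline, 5.84, 9.73 and 6.79 CPM in sham JV001, 11.5, 10.5 and 8.10 CPM in CKD saline and 7.69, 6.23 and 4.90 CPM in CKD JV001, a log2 fold change of -0.68 in each surgery. Magi3, a scaffold protein of cell junctions, was not separated in CKD. It stood at 60.5, 58.6 and 58.4 CPM in sham saline against 34.8, 36.8 and 37.0 CPM in sham JV001, while in CKD the 42.5, 42.0 and 33.8 CPM of saline overlapped the 25.9, 31.1 and 36.2 CPM of JV001. DESeq2 called 15 of these 20 leading genes, edgeR with the replicate block 16 and voom with quality weights all 20; with library 3 of both CKD groups left out, edgeR called 2 of them.

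Genes of the heart's electrical system gave more genes that were lower to a like degree in sham and CKD than any other list. A gene is called alike here, as a description, when its 2 fold changes have the same sign and the smaller is at least 0.5 times the larger on the log2 scale, which held for 3717 genes (24.8% of all tested), 2028 on the higher side (13.5%) and 1689 on the lower (11.3%). Of 23 ion channel and gap junction genes, 8 were alike and lower and 10 were lower at an unadjusted p under 0.05 (5.9% of all tested genes). Of these 23 genes, 17 were negative in both surgeries (33.4% of all tested genes). Their median log2 fold change was -0.36 pooled, -0.37 in sham and -0.57 in CKD, beside 0.01, -0.01 and 0.02 over all tested genes. Hcn4, the main pacemaker channel, was at 8.71, 7.74 and 11.2 CPM in sham saline and 3.96, 7.04 and 6.67 CPM in sham JV001. In CKD it was at 9.22, 10.4 and 6.24 CPM with saline and 4.72, 4.06 and 2.82 CPM with JV001, without overlap in either surgery, for a log2 fold change of -0.90 (SE 0.22).

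Kcnj5, a subunit of the potassium channel opened by acetylcholine, was at 92.0, 89.8 and 96.1 CPM in sham saline against 61.2, 67.8 and 64.1 CPM in sham JV001. In CKD its 69.2, 71.6 and 46.8 CPM with saline met 48.0, 45.8 and 26.2 CPM with JV001, so that the third saline library lay inside the range of the JV001 libraries. Kcnd2, of the transient outward potassium current, followed with 24.7, 23.2 and 26.3 CPM in sham saline, 16.1, 17.8 and 16.9 CPM in sham JV001, 19.0, 15.1 and 10.2 CPM in CKD saline and 9.53, 12.7 and 6.78 CPM in CKD JV001. Gja1, connexin 43 of the ventricular gap junction, was at 403, 422 and 387 CPM in sham saline and 175, 278 and 292 CPM in sham JV001, and its CKD groups overlapped, at 324, 358 and 212 CPM against 239, 241 and 195 CPM. The log2 fold changes were -0.59 (SE 0.15), -0.58 (SE 0.17) and -0.55 (SE 0.16) for Kcnj5, Kcnd2 and Gja1, each with its sham groups apart and CKD saline library 3 as the lowest saline library. Irx4, a transcription factor of the ventricle, was at 24.6, 41.4 and 37.3 CPM in sham saline, 13.7, 17.7 and 25.2 CPM in sham JV001, 38.2, 42.3 and 21.5 CPM in CKD saline and 23.9, 19.9 and 7.86 CPM in CKD JV001, a log2 fold change of -0.92 (SE 0.27).

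The renin-angiotensin-aldosterone list had 8 of its 12 genes tested, of which 3 were positive, with a median of -0.24 that was -0.13 without CKD saline library 2 and -0.15 without CKD JV001 library 3. The median was 0.02 in sham, with 4 genes positive and 4 negative, and -0.51 in CKD, with 3 positive and 5 negative. At an unadjusted p under 0.05 in edgeR's pooled test, 2 were higher and 3 lower (7.9% and 5.9% of all tested genes). Beside Nr3c2, Agtr1a, the type 1 angiotensin II receptor, was lower, at 25.3, 46.6 and 47.7 CPM in sham saline, 25.4, 28.9 and 35.4 CPM in sham JV001, 43.3, 41.7 and 19.5 CPM in CKD saline and 22.7, 18.1 and 11.0 CPM in CKD JV001 (log2 fold change -0.71, SE 0.26). In both surgeries 1 saline library lay within or below the JV001 range, and these were sham saline library 1 and CKD saline library 3. Mas1, the receptor for angiotensin-(1-7), was scarce and had -0.21 in sham against -2.24 in CKD. Atp6ap2, the prorenin receptor, went the other way, with a log2 fold change of 0.45 (SE 0.17), 0.39 in sham and 0.50 in CKD.

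**Figure D3:**
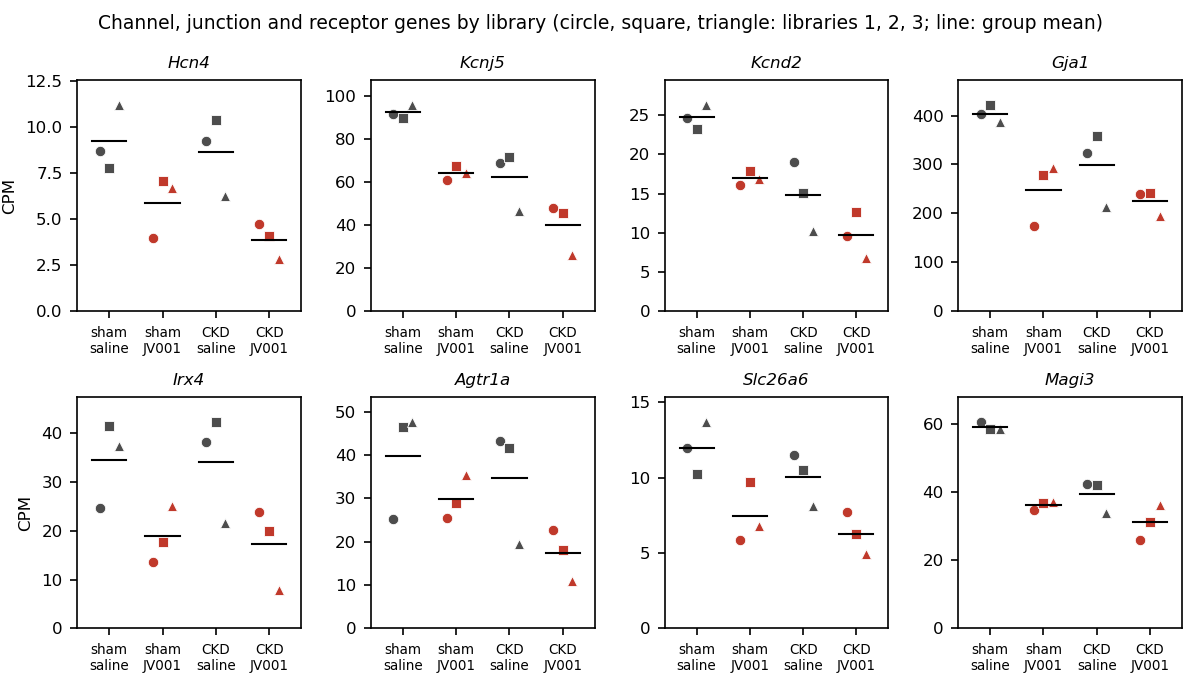
CPM of 8 genes of channels, junctions, receptors and transport in each of the 12 libraries, grey for saline and red for JV001, on linear axes from 0 with the group mean as a line. In sham the 3 JV001 libraries of Hcn4, Kcnj5, Kcnd2, Gja1, Slc26a6 and Magi3 lie below the 3 saline libraries, and in CKD library 3 (triangle) is the lowest saline point in all 8 panels.

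Interferon-induced genes had the most members at an unadjusted p under 0.05 on the higher side of any list, and their medians were far apart in the 2 surgeries. All 36 tested members were positive, 30 of 36 at an unadjusted p under 0.05 (7.9% of all tested genes), with a median log2 fold change of 1.72. The median was 0.85 in sham and 2.45 in CKD, and 6 of 36 were alike and higher (13.5% of all tested genes). Of the 36, 0 were separated in both surgeries, near the 0.453% separated and higher over all tested genes. Their promoters are shown because a shared sequence is what interferon-induced genes are known for: the interferon-stimulated response element, bound by the STAT and IRF factors, written here as GAAANNGAAA on either strand (TTTCNNTTTC on the other). In RefSeq's promoters of 300 bases (250 before and 50 after the start, build GRCm38.p6), 27 of the 36 members had an entry and 18 of these held the motif (66.7%), beside 442 of 11822 tested genes with an entry (3.74%) and 1079 of all 27025 genes of the table (3.99%). The 250 bases before the start are printed for the 3 members of smallest p that hold the motif there, read on the gene's own strand, with each match in capitals. They lie at chr19:34583279-34583528 (plus strand) for Ifit3, chr12:26456453-26456702 (minus strand) for Rsad2 and chr3:142530086-142530335 (plus strand) for Gbp7.
Ifit3: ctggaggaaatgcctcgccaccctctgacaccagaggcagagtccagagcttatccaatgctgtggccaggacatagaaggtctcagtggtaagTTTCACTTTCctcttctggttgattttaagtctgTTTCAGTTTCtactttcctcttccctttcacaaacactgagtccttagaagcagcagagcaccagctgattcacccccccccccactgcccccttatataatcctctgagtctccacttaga
Rsad2: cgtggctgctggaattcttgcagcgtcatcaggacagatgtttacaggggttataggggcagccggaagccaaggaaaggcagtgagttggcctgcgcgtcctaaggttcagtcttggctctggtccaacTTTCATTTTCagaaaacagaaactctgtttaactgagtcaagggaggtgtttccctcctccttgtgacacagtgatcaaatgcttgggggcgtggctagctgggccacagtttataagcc
Gbp7: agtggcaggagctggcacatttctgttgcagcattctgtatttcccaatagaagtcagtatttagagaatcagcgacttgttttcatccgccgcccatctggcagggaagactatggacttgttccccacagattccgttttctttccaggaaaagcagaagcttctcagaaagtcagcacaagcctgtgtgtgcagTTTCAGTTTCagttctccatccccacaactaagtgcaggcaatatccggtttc
A match is a description of these letters, not a bound site. Ifit3, whose product binds viral RNA as part of a complex, has 2 matches, the nearer beginning 122 bases before the start. Rsad2, the antiviral enzyme viperin, has 1 beginning at 120 bases, and Gbp7, a guanylate-binding protein, has 1 beginning at 53 bases.

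The 3 genes with printed promoters had higher group means with JV001 in each surgery. Rsad2 was at 12.5, 6.87 and 6.81 CPM in sham saline, 31.3, 19.4 and 12.4 CPM in sham JV001, 8.77, 10.4 and 35.8 CPM in CKD saline and 27.8, 29.3 and 257 CPM in CKD JV001. Ifit3 was at 7.91, 6.84 and 2.69 CPM in sham saline, 16.7, 10.9 and 6.39 CPM in sham JV001, 9.0, 9.50 and 10.6 CPM in CKD saline and 17.6, 19.2 and 156 CPM in CKD JV001. Gbp7 was at 13.5, 5.65 and 8.26 CPM in sham saline, 23.3, 19.8 and 11.9 CPM in sham JV001, 11.0, 8.05 and 30.6 CPM in CKD saline and 27.5, 27.8 and 166 CPM in CKD JV001. CKD JV001 library 3 was far above the rest for all 3 genes, and the sham groups overlapped through sham JV001 library 3. In CKD the groups of Rsad2 and Gbp7 overlapped through CKD saline library 3 (35.8 and 30.6 CPM), while those of Ifit3 did not overlap. The members of smallest p were Ifi27l2a (log2 fold change 1.45, SE 0.38), Ifi44 (2.25, SE 0.66), Xaf1 (1.55, SE 0.49) and Usp18 (1.58, SE 0.51), the last of which removes the ubiquitin-like Isg15 and restrains the interferon receptor. As a mean log2 CPM over the list, sham saline was at 2.85, 2.25 and 1.91 and sham JV001 at 3.72, 3.33 and 2.18, CKD saline at 2.41, 2.50 and 3.73 and CKD JV001 at 3.85, 3.83 and 6.88. The CKD groups did not overlap and the sham groups did, and the list's median was 0.87 without CKD JV001 library 3, with 35 of 36 members still positive. CKD saline library 3 and CKD JV001 library 3, the highest of their groups here, were also the highest of their groups in macrophage markers (mean log2 CPM 4.10 and 5.25), whose part in the result was not tested. Guanylate-binding and Ifit genes have close paralogs, so their reads may be shared between copies.

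Genes of nucleic acid sensing and of antigen presentation lay in the same direction. Of 16 genes of nucleic acid sensing, which include sensors, adaptors and nucleases, 15 were positive. At an unadjusted p under 0.05, 7 of the 16 were higher (7.9% of all tested genes). Their median was 1.00 (0.39 in sham and 1.38 in CKD), and 0.58 without CKD JV001 library 3. Tlr7, the endosomal sensor of single-stranded RNA, had a log2 fold change of 2.48 (SE 0.77), 1.86 in sham and 3.03 in CKD. Dhx58, a regulator of the cytosolic RNA sensors, had 0.62 in sham and 2.60 in CKD, and Ifih1, the sensor Mda5, had 0.53 and 1.72. Of 19 genes of antigen presentation by MHC class I and class II, 18 were positive, with a median of 0.93 (0.43 in sham, 1.37 in CKD). At an unadjusted p under 0.05, 10 of the 19 were higher (7.9% of all tested genes). Both master regulators of these genes were alike in the 2 surgeries. Nlrc5, the transactivator of class I, had 1.42 in sham and 1.66 in CKD, and Ciita, that of class II, had 0.97 and 1.11. Ciita was at 0.611, 0.636 and 0.285 CPM in sham saline, 1.36, 0.701 and 0.939 CPM in sham JV001, 1.44, 0.231 and 1.99 CPM in CKD saline and 2.37, 3.26 and 2.26 CPM in CKD JV001, and was the list's only member separated in both surgeries. B2m, the light chain of class I, was separated in CKD alone (121, 122 and 280 CPM against 318, 308 and 651 CPM), and whether its change differed between surgeries was tested by the interaction, with an unadjusted p of 0.21.

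Inflammatory genes had the largest median of any list with all 12 libraries, a place they lost without CKD JV001 library 3. Of 23 tested genes of inflammation and NF-kB signalling, 23 were positive and 12 were higher at an unadjusted p under 0.05 (7.9% of all tested genes). Their median was 1.84, with 0.88 in sham and 2.58 in CKD. Without CKD JV001 library 3 it was 0.75. That was below the 1.14 of adipocyte, 0.98 of B cell and 0.89 of macrophage markers and the 0.87 of interferon-induced genes. Il6, a cytokine of the acute phase, was the member separated in both surgeries. It was at 0.225, 0.239 and 0 CPM in sham saline, 0.928, 1.18 and 0.424 CPM in sham JV001, 0.0740, 0 and 0.278 CPM in CKD saline and 0.887, 0.557 and 13.8 CPM in CKD JV001, so that all 6 JV001 libraries lay above all 6 saline libraries at low levels. Socs3, which restrains the signal of Il6, was at 86.6, 63.8 and 26.8 CPM in sham saline, 174, 115 and 49.8 CPM in sham JV001, 34.8, 36.4 and 49.8 CPM in CKD saline and 107, 102 and 303 CPM in CKD JV001 (log2 fold change 1.51, SE 0.42). Tnf had a log2 fold change of 1.86 (SE 0.56) and Ccl5, a chemokine for T cells, 1.91 (SE 0.60). All 15 complement and acute phase genes were positive, with medians of 0.26 in sham and 1.81 in CKD. At an unadjusted p under 0.05, 4 were higher (7.9% of all tested genes), among them C4b (1.36, SE 0.50) and Cfb (1.54, SE 0.64).

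Immediate early genes and glucocorticoid-responsive genes had larger medians in sham than in CKD. Of 24 immediate early genes, which cells switch on within minutes of a stimulus, 10 were alike and higher (13.5% of all tested genes). At an unadjusted p under 0.05, 9 were higher (7.9% of all tested genes), and the medians were 0.52 in sham and 0.34 in CKD. Ier3, an early gene that bears on cell survival, was at 23.9, 25.8 and 34.5 CPM in sham saline, 58.6, 60.6 and 36.0 CPM in sham JV001, 31.7, 32.2 and 32.1 CPM in CKD saline and 38.2, 35.1 and 119 CPM in CKD JV001. All 6 JV001 libraries lay above all 6 saline libraries, with a log2 fold change of 0.94 (SE 0.28) that was 0.58 without CKD JV001 library 3. Zfp36, which degrades cytokine transcripts, had 0.72 in sham and 0.74 in CKD, Junb 0.54 and 1.11, and Myc 1.22 and 1.84. Sham JV001 library 3 was the lowest JV001 library for each of Zfp36, Junb and Myc in sham.

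Of 15 glucocorticoid-responsive genes, 15 were positive in sham and 13 in CKD, with medians of 0.78 and 0.31, and a pooled median of 0.56 that was 0.29 without CKD JV001 library 3 and 0.90 without CKD saline library 3. Fkbp5, a chaperone of the glucocorticoid receptor, was at 16.0, 9.31 and 8.32 CPM in sham saline, 46.1, 27.5 and 14.3 CPM in sham JV001, 15.1, 13.7 and 27.3 CPM in CKD saline and 19.5, 21.2 and 243 CPM in CKD JV001. Angptl4, an inhibitor of lipoprotein lipase, had a log2 fold change of 1.64 (SE 0.48), 1.49 in sham and 1.81 in CKD. Zbtb16, a transcription factor of this response, was at 34.3, 59.5 and 105 CPM in sham saline and 309, 207 and 124 CPM in sham JV001. In CKD only library 3 of its JV001 group (209 CPM) was above the saline libraries (50.9 to 52.2 CPM), the other 2 being at 35.0 and 32.1 CPM. Mt2, a metallothionein induced by metals and glucocorticoids, was likewise separated in sham (22.8, 21.1 and 22.2 CPM against 63.8, 36.0 and 27.0 CPM), and in CKD it was at 33.6, 33.5 and 31.5 CPM against 31.2, 35.4 and 280 CPM.

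The genes of the contractile and energy machinery were lower, nearly all of it in CKD. All 23 contractile genes were negative in both surgeries, with medians of -0.10 in sham and -0.75 in CKD, and 0 had an unadjusted p under 0.05. For Ttn, the giant spring of the sarcomere, the groups were at 3782, 4888 and 4744 CPM in sham saline, 4705, 3928 and 3777 CPM in sham JV001, 3547, 3546 and 1994 CPM in CKD saline and 1775, 2062 and 981 CPM in CKD JV001. The sham groups overlapped in full, and CKD saline library 3 lay among the CKD JV001 libraries. The medians were -0.09 and -0.72 for the 20 citric acid cycle genes, -0.09 and -0.64 for the 40 nuclear genes of the respiratory chain, -0.07 and -0.71 for the 30 genes of fatty acid use and -0.12 and -0.62 for the 19 genes of glucose use, sham first. Cs, the citrate synthase, had a log2 fold change of -0.12 in sham and -0.81 in CKD, Acsl1, which activates fatty acids, -0.19 and -0.84, and Ndufa9, of complex I, -0.11 and -0.78. No member of these 4 lists was separated in both surgeries, which is near the 0.746% separated and lower over all tested genes. Hk1, a hexokinase, was alike at -0.27 and -0.30. Without CKD JV001 library 3 the pooled medians were -0.24 for contractile, -0.26 for citric acid cycle, -0.19 for respiratory chain, -0.21 for fatty acid and -0.22 for glucose genes, against -0.41, -0.42, -0.34, -0.37 and -0.38 with it.

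Calcium handling followed the same course, with a median of -0.36 (-0.10 in sham, -0.68 in CKD; -0.22 without CKD JV001 library 3) over 16 genes. Cacna1c, the pore of the L-type calcium channel, was at 270, 345 and 331 CPM in sham saline, 314, 276 and 282 CPM in sham JV001, 288, 275 and 167 CPM in CKD saline and 147, 172 and 84.2 CPM in CKD JV001. Slc8a1, the sodium-calcium exchanger, had -0.15 in sham and -0.81 in CKD, and Camk2d, the calcium-dependent kinase of the heart, -0.19 and -0.53. Itpr2, an inositol trisphosphate receptor, was the exception at an unadjusted p under 0.05, with 0.70 in sham and 0.77 in CKD.

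Markers of several other cell types were higher beside these values, and those of others were not. Over 13 endothelial markers, 12 were positive in both surgeries and 9 were alike and higher (13.5% of all tested genes), with medians of 0.47 in sham and 0.72 in CKD. Flt1, a receptor for vascular endothelial growth factor, was at 184, 52.4 and 83.4 CPM in sham saline, 260, 214 and 172 CPM in sham JV001, 138, 125 and 418 CPM in CKD saline and 307, 338 and 650 CPM in CKD JV001, a log2 fold change of 0.97 (SE 0.37). Sham saline library 1 and CKD saline library 3 were each above the other saline libraries of their group and at or above the lowest JV001 library, and the same held for Pecam1 and Fabp4. Leaving out sham saline library 1 took the list's median from 0.54 to 0.93, and leaving out library 3 of CKD saline took it to 0.90. As a mean log2 CPM the endothelial list ranged from 5.39 to 8.15 in saline and from 6.70 to 7.90 in JV001 libraries.

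All 13 fibroblast markers were positive (medians 0.31 in sham and 1.36 in CKD). Of the 13, 5 were higher at an unadjusted p under 0.05 (7.9% of all tested genes). Their mean log2 CPM ran from 3.63 to 6.16 in saline and from 4.38 to 6.85 in JV001 libraries, with the CKD groups apart. Mfap5, a microfibril protein, was alike (1.05 in sham, 0.95 in CKD), as was Ddr2, a collagen receptor (0.70 and 1.27), while Dcn, decorin, had 0.43 and 1.36. All 36 genes of the extracellular matrix were positive in the pooled comparison and in CKD, while in sham 26 were positive and 10 negative. The medians were 0.67 pooled, 0.14 in sham and 1.22 in CKD. In edgeR's pooled test 4 of the 36 were higher at an unadjusted p under 0.05 (7.9% of all tested genes). Mmp2 had 0.37 in sham and 1.46 in CKD, and Postn 0.23 and 1.42. Dropping 1 library at a time moved the pooled median between 0.46 (CKD saline 1) and 1.03 (CKD saline 3).

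Of 15 macrophage markers, 14 were positive, 7 were alike and higher (13.5% of all tested genes) and 8 were higher at an unadjusted p under 0.05 (7.9% of all tested genes), with medians of 0.79 in sham and 1.5 in CKD. Ccr2, the receptor that brings monocytes into tissue, gave 0.0643, 0.239 and 0.155 CPM in sham saline, 0.526, 1.21 and 0.394 CPM in sham JV001, 0.444, 0.726 and 1.07 CPM in CKD saline and 1.77, 0.849 and 5.40 CPM in CKD JV001. Fcgr1, a receptor for antibodies, had log2 fold changes of 1.69 in sham and 2.69 in CKD, and Cd14, a receptor for lipopolysaccharide, had 1.09 and 2.44. Their list's mean log2 CPM ran from 0.73 to 4.10 in saline and from 1.41 to 5.25 in JV001 libraries. Lymphocyte markers were scarce: 8 of 14 for T and NK cells and 8 of 9 for B cells were tested, at mean log2 CPM of at most -0.51 and 0.17 in any library. Neutrophil markers (9 of 12 tested, median 1.58) had no such course without CKD JV001 library 3, where the median was -0.08. The median was negative in sham and positive in CKD for atrial (-0.18 and 1.80, 10 tested), epicardial (-0.47 and 1.49, 10 tested), adipocyte (-0.44 and 2.53, 5 tested) and T and NK cell markers (-0.36 and 0.99). Sham saline library 1 had the highest mean log2 CPM of its group in each of these lists. Without it the pooled medians rose, from 0.76 to 1.45 (atrial), 0.53 to 1.23 (epicardial), 0.97 to 1.87 (adipocyte) and 0.38 to 0.97 (T and NK). In sham, the group mean log2 CPM was higher with JV001 for atrial, epicardial and adipocyte markers. These means were 6.80 against 6.28, 2.22 against 2.00 and 0.52 against 0.21. For T and NK cell markers it was lower (-2.83 against -2.52). In CKD, 7 of the atrial and 7 of the epicardial markers were separated and higher (8.22% of all tested genes). The 5 tested of 8 erythroid markers were negative in both surgeries (median -0.27), but the median was 0.73 without CKD saline library 3. Ventricular cardiomyocyte markers were lower (0 of 12 positive in the pooled comparison, medians -0.11 and -0.74). In bulk RNA, fewer cells of a type and less RNA per cell cannot be told apart, and the part of these other cells in the immune, matrix and myocyte values was not tested.

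**Figure D4:**
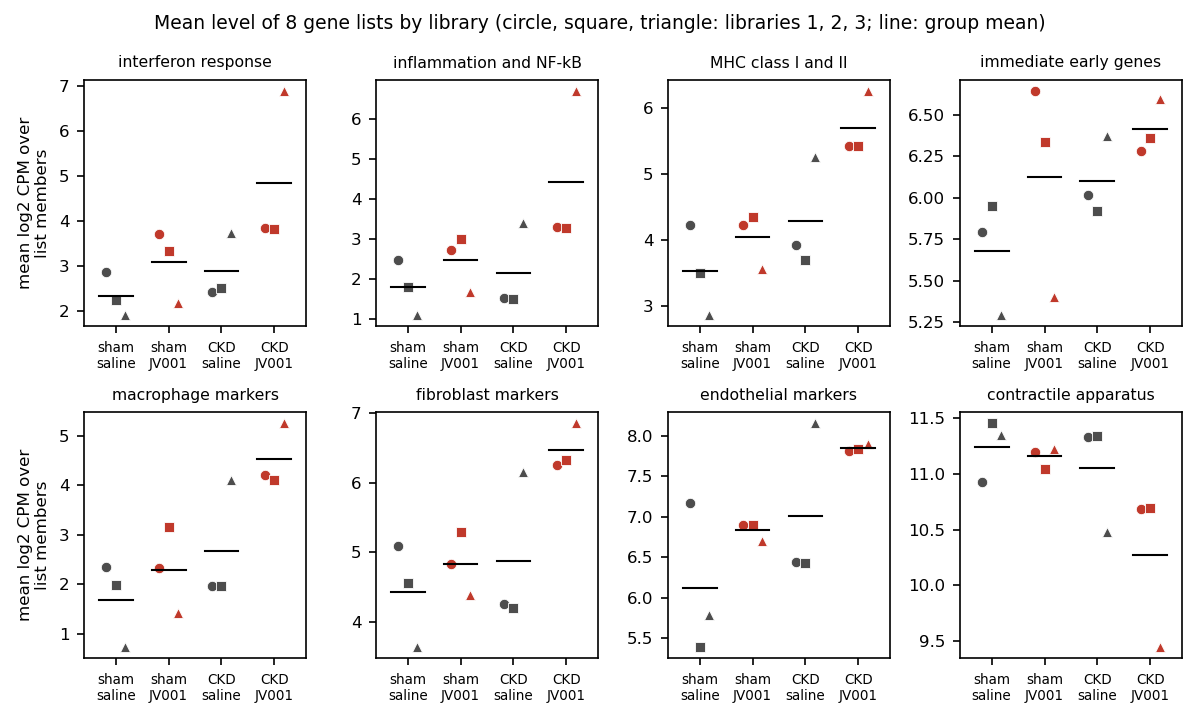
Mean log2 CPM over the tested members of 8 gene lists in each of the 12 libraries, grey for saline and red for JV001, with the group mean as a line (axes do not start at 0). In CKD the JV001 libraries lie above all saline libraries for the interferon, MHC, macrophage and fibroblast lists, library 3 is the extreme of its CKD group in all 8 panels, and in sham the groups overlap in every panel.

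Telomere genes had small list medians, while the errors of some single genes leave larger changes possible. Shelterin is the complex that covers chromosome ends, and all 7 of its genes were tested. Terf1 (log2 fold change 0.49, SE 0.29), Pot1b (0.33, SE 0.24), Acd (0.16, SE 0.17), Tinf2 (0.11, SE 0.13), Pot1a (0.09, SE 0.13) and Terf2 (0.07, SE 0.10) were positive and Terf2ip (-0.09, SE 0.10) was negative, with unadjusted p of 0.12 or more. The median was 0.11 (0.13 in sham, 0.09 in CKD). Terf2, which shields the end from being taken for a break, was at 11.9, 12.3 and 13.0 CPM in sham saline, 13.4, 10.9 and 14.1 CPM in sham JV001, 11.7, 11.6 and 11.8 CPM in CKD saline and 11.8, 12.9 and 12.7 CPM in CKD JV001. Of 17 genes of telomerase and telomere replication 5 were positive, with a median of -0.06, and Dkc1 (-0.27, SE 0.12) and Nhp2 (-0.31, SE 0.14), both proteins of the telomerase particle and of ribosomal RNA modification, were lower at an unadjusted p under 0.05. Tert, the catalytic subunit, gave 0 to 6 reads per library and was not tested. A gene spelled Tpp1 in mouse is a lysosomal peptidase and was left out.

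Genes of the DNA damage response were placed lower in small steps (5 of 19 positive, median -0.15, and -0.09 without CKD JV001 library 3 or sham JV001 library 2), with Mre11a, a nuclease of break repair, at -0.20 in sham and -0.40 in CKD. Among 19 targets of p53, 10 were positive and 9 negative, beside 50.9% positive over all tested genes. At an unadjusted p under 0.05, 4 were higher and 1 lower (7.9% and 5.9% of all tested genes). Of the 19, 6 were alike and higher (13.5% of all tested genes). Plk2, a kinase induced by stress, was at 35.1, 26.7 and 24.6 CPM in sham saline, 65.0, 46.0 and 28.6 CPM in sham JV001, 38.9, 34.3 and 56.3 CPM in CKD saline and 71.5, 69.5 and 92.2 CPM in CKD JV001 (log2 fold change 0.77, SE 0.20). Trp53inp1 (0.96, SE 0.29), Bbc3 (0.91, SE 0.35) and Pmaip1 (2.20, SE 0.82), the last 2 being killer proteins of the Bcl2 family, were the others on the higher side. The list's median was 0.16 (0.10 in sham, 0.54 in CKD), and it was 0.47 without sham saline library 1 and 0.13 without CKD saline library 2. Of 19 genes of senescence, 14 were positive, with 0.19 in sham and 1.10 in CKD. Cxcl1, a secreted chemokine, had 0.91 and 2.68, while Glb1, the beta-galactosidase used as a stain for senescence, was lower at -0.45 in sham and -0.13 in CKD.

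The cell cycle list had no common direction, with 15 of 26 positive and a median of 0.08 that was -0.29 without CKD JV001 library 3. Mcm2, a subunit of the replicative helicase, was its member separated in both surgeries. It was at 7.26, 7.88 and 8.01 CPM in sham saline, 4.36, 5.64 and 6.39 CPM in sham JV001, 12.4, 9.76 and 12.0 CPM in CKD saline and 8.07, 7.67 and 7.63 CPM in CKD JV001, higher in CKD than in sham and lower with JV001 in each (-0.50 and -0.55). Rrm2, which supplies deoxynucleotides, had -0.67 in sham and -1.23 in CKD, and Cenpf, of the kinetochore, -0.26 and -0.77. Tyms, the thymidylate synthase, went the other way with 0.77 and 1.29.

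Among the other lists, the circadian clock had a median of 0.01. Rora, a nuclear receptor of the clock, was separated in both surgeries (20.7, 21.0 and 15.9 CPM against 29.9, 22.7 and 22.2 CPM in sham, and 16.5, 18.8 and 19.1 CPM against 20.4, 19.4 and 24.9 CPM in CKD). Per2 had 1.24 in sham and 0.93 in CKD, Cry1 0.20 and 0.67, and Ciart, which represses the clock's activators, -1.20 and -0.88. Sham saline libraries differed widely among themselves in these genes, with Ciart at 2.06, 9.20 and 29.9 CPM and Per2 at 4.92, 12.9 and 26.5 CPM. Of the genes of the mitochondrial genome, ATP8 (log2 fold change 1.96, SE 0.50) and ND3 (1.13, SE 0.35) were higher at an unadjusted p under 0.05 while the list's median was 0.02. ATP8 overlaps the next gene on the mitochondrial DNA, so its reads are uncertain. Hmox1, the haem oxygenase induced by oxidative stress, had 0.84 in sham and 1.15 in CKD, and was separated in sham (7.52, 5.46 and 6.37 CPM against 12.5, 13.3 and 8.97 CPM). Nppa, the atrial natriuretic peptide, had -0.11 in sham and 1.76 in CKD, with sham saline library 1 at 2922 CPM against 356 and 1046 CPM in the other 2 sham saline libraries.

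**Figure D5:**
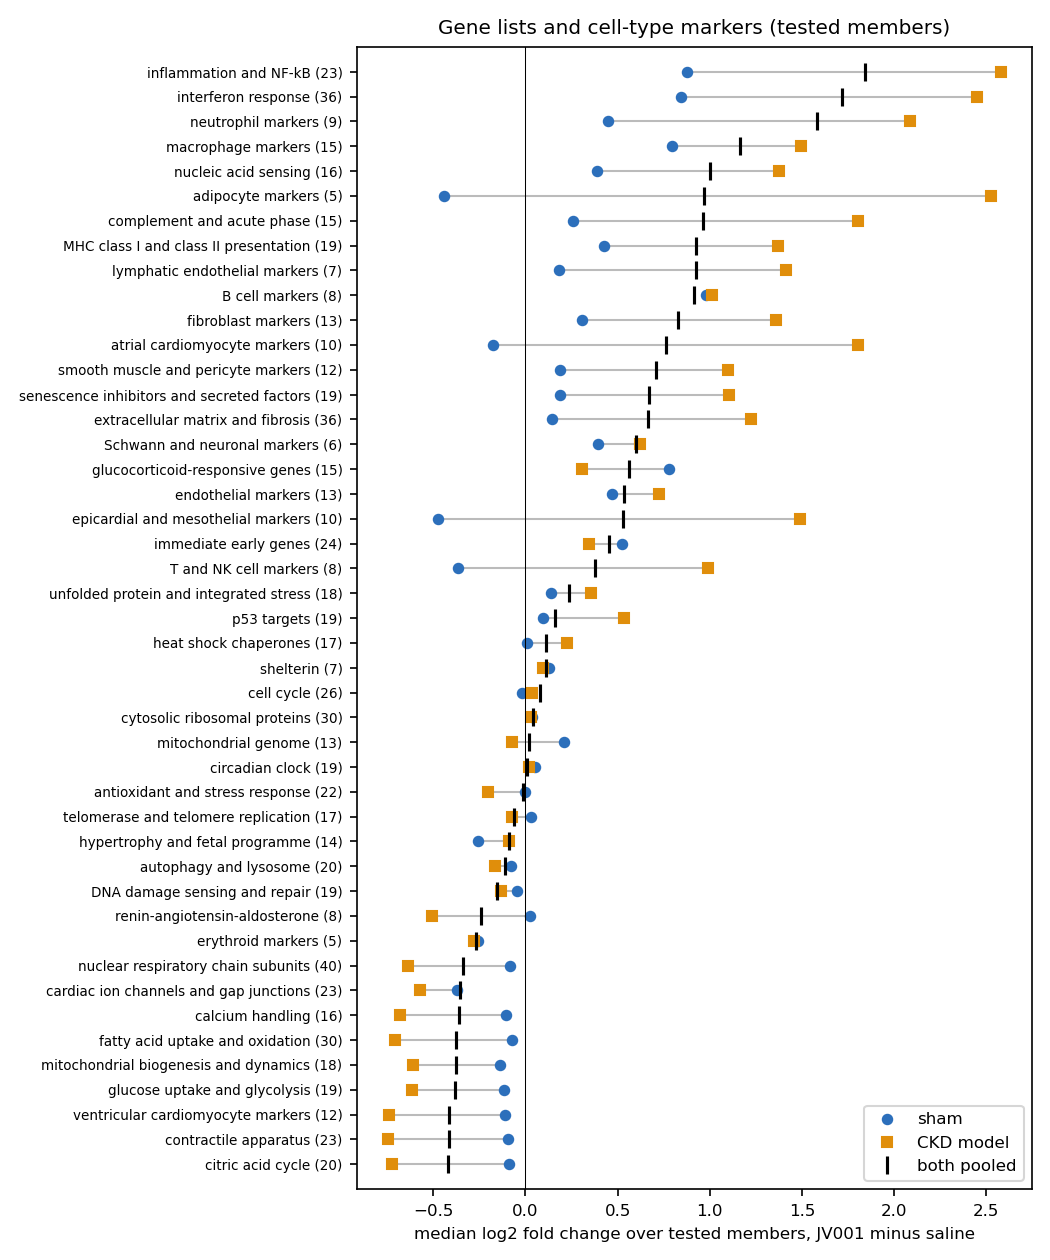
Median log2 fold change of JV001 minus saline over the tested members of each gene list or marker list, for sham (circles), the CKD model (squares) and both pooled (bars), ordered by the pooled value, with the number of tested members in brackets. Inflammation (0.88 in sham, 2.58 in CKD) and interferon response (0.85 and 2.45) are at the top, and contractile (-0.10 and -0.75) and citric acid cycle genes (-0.09 and -0.72) at the bottom.

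Whether the change differed between the 2 surgeries was tested by the interaction of surgery and injection in edgeR. Of 15004 genes, 0 (0%) passed at an adjusted p under 0.05, the smallest being 0.840, and 567 (3.78%) had an unadjusted p under 0.05. DESeq2 called 2 genes, edgeR with the replicate block 1 and voom with quality weights 20. Within a surgery, 0 genes passed in sham or in CKD, with 426 (2.84%) and 2707 (18%) at an unadjusted p under 0.05. With the replicate block, 0 genes were still called in sham, and 1504 were called higher and 1785 lower in CKD. The wider gap between CKD and sham medians of the interferon, inflammatory, matrix and contractile lists is thus a description of medians, and the spread among the CKD libraries that it rests on is wide. Members that were alike and higher made up the greatest shares in endothelial (9 of 13), macrophage (7 of 15) and neutrophil markers (4 of 9), shelterin (3 of 7), immediate early genes (10 of 24) and glucocorticoid-responsive genes (6 of 15), beside 13.5% of all tested genes. On the lower side they were 4 of 5 erythroid markers and 8 of 23 ion channel genes, beside 11.3%. In all of these lists but the endothelial and erythroid markers, most members were not alike. The description sets no lower limit on the size of a change. In edgeR's pooled test, 0 members of the neutrophil, shelterin and erythroid lists had an unadjusted p under 0.05. The neutrophil median was -0.08 without CKD JV001 library 3, and the erythroid median was 0.73 without CKD saline library 3. Contractile, citric acid cycle and respiratory chain genes had 0 alike members. Of the 741 list genes tested, 8 were separated in both surgeries, 5 higher and 3 lower, beside 1.2% of all tested genes.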

How the data were processed

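RNA from 12 samples of isolated cardiomyocytes, purified with a Qiagen RNeasy kit (1.3 ug per sample), was made into VAHTS Universal V6 libraries, per the labels' protocols. The authors deposited whole-number read counts per gene symbol (22584 genes), left unnormalised, and FPKM values made from them. Per the submitters' processing notes, reads went through fastp, HISAT2 and HTSeq on GRCm39; tool versions, annotation and strand setting are not stated in what was used here. Columns were assigned to samples by the group letters and the number in their names. Library totals of 25.2 to 37.0 (in 1e+06 counts) set the precision.

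From the counts, genes were kept by edgeR's filterByExpr (minimum count 10; 15004 genes), scaled by TMM and tested with edgeR 4.0.16 (R 4.3.3, quasi-likelihood, surgery plus injection, Benjamini-Hochberg adjustment over all tested genes, threshold 0.05). A second fit of the 4 groups gave the sham, CKD and interaction contrasts; SE is the fold change divided by the root of F. List levels are means of log2 CPM (prior count 2). The script was tested on simulated data with the same spread for all genes, no surgery effect and no outlying library. That checks the code, not its power in these data. Alternatives were DESeq2 1.42.0, limma 3.58.1 (voom with quality weights; log2(FPKM + 1) and log2(FPKM + 0.1), mean FPKM of at least 0.5), RLE and upper quartile factors, library totals, other filters, robust spread, no surgery term, averaged contrasts, a replicate block, mitochondrial and haemoglobin genes left out, and each library left out. Summing libraries 1 and 2 of each CKD group, recounting separated genes without single libraries, and the block within each surgery, were added after seeing the data.

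Named genes are the 10 of smallest p per direction with the same sign in both surgeries and a mean of at least 1 CPM in either injection group, unnamed models aside, all shelterin genes and up to 4 members of smallest p per list; an item this rule names is not reported here. Genes with printed promoters were picked for their motif after their values were seen. The comparison, the 31 pathway and 14 marker lists (773 symbols, 765 in the file) were chosen with earlier results of these data known. Promoters are RefSeq's (GRCm38.p6).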

Additional observations from a re-analysis of the deposited data

Results flagged for a closer look

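Among 90 checks of a list's mean log2 CPM, 1 per list and injection over 6 libraries, 15 had a library farther from its nearest neighbour than Dixon's limit allows at the 95% level. Chance alone flags about 1 in 20 such groups, and each group of 6 here joins 2 surgeries. CKD JV001 library 3 was high among JV001 libraries for the interferon response (6.88), inflammation and NF-kB (6.69), the cell cycle (1.68) and Schwann and neuronal markers (1.24). The same library was low for the hypertrophy and fetal programme (6.18), contractile apparatus (9.44), citric acid cycle (7.93), nuclear respiratory chain (7.62), glucose use (7.09) and ventricular cardiomyocyte markers (10.1). CKD saline library 3 was low among saline libraries for calcium handling (7.85) and mitochondrial biogenesis (5.72) and high for neutrophil markers (2.77). Sham JV001 library 3 was low for immediate early genes (5.40), and sham saline library 1 was low for the circadian clock (4.28).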

How the results depend on the processing

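No gene was called under RLE or upper quartile factors, either filter setting, robust spread, no surgery term, averaged contrasts, limma on log2 FPKM, mitochondrial and haemoglobin genes left out, or any single library left out, so leaving out a library tells little of the stability of calls. DESeq2 called 16 higher and 7 lower, with 2 interaction calls. Voom with quality weights called 2698 and 1509, with 6450 genes at an unadjusted p under 0.05, 20 interaction calls and 2876 interaction genes at an unadjusted p under 0.05. Without library 3 of both CKD groups 26 and 20 were called, with 4216 and, for the interaction, 2945 at an unadjusted p under 0.05, and 987 separated genes. With libraries 1 and 2 of each CKD group summed, the unadjusted counts were 1083 and 337, and with no filter the interaction's was 857. Over single libraries left out, unadjusted counts ran from 1000 (without CKD saline 1) to 3887 (without CKD saline 3) for the injection and from 328 to 2789 for the interaction, and separated genes from 208 to 907. The labels do not say that replicate numbers pair the samples. Same-numbered libraries' deviations correlated at 0.04, -0.08 and 0.22 in sham, where the numbers did not pair, and at 0.30, 0.29 and 0.49 in CKD, where CKD saline and CKD JV001 both hold a library 3 that stands apart. With a replicate block, 552 genes were called higher and 158 lower, 4559 had an unadjusted p under 0.05, and the interaction had 1 call and 2278 at an unadjusted p under 0.05; in CKD alone the block gave 1504 higher and 1785 lower, and in sham 0. The cause of these differences was not tested. Of the list medians under all alternatives, 1192 moved by less than 1 SD and 19 by more, and no named gene changed sign. That SD is the spread of a list's mean log2 CPM among libraries of a group, and it is wide for some lists. For neutrophil markers it was 1.77, so a median that went from 1.58 to -0.08 without CKD JV001 library 3 counted as moved by less. The count of 1192 is therefore a lenient measure of stability. Leaving out CKD JV001 library 3 moved 28 of 45 list medians and 26 of 108 named genes' fold changes by over 1.5 times, and 37 medians and 34 genes were so moved by at least 1 of the 12 libraries. Genes at a few reads, such as Saa3, Tlr6 and Il6, are limited by depth.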
